A study of Mus musculus with 6 samples.

Results

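Heat shock factor 1, encoded by Hsf1, and 9 chaperone genes were followed in RNA of RAW264.7 cells, a macrophage-like mouse line established from a leukemia-virus tumour. These 10 genes were chosen by name (Hsf1, Hsp90aa1, Hsp90ab1, Hspa8, Hspa1a, Hspa4, Hsph1, Dnajb1, Hspd1 and Hspe1) from a table of 54532 gene entries, and 10 of 10 were found there. All but Hspd1 and Hspe1 act in the cytosol and nucleus. Those 2 encode the chaperonin of the mitochondrial matrix, so the set is not purely cytosolic.

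The Gel/S group, the control, was kept static with plain GelMA, a methacryloyl-modified gelatin hydrogel, for 3 d. The C/D group was kept equally long with a GelMA/PEDOT:PSS+PLLA/PDA composite, in which PEDOT:PSS is a polymer that conducts current, and received low-frequency ultrasound (48 kHz, 5 min) as a dynamic environment. Each group has 3 libraries, and nothing in the labels says that they came from separate cultures, so p-values measure only the spread between these libraries, which may be technical. Material and ultrasound changed together, and their effects cannot be told apart. The column headers of the table call the groups GEL and US. US was taken to mean ultrasound, a treatment that the labels give to C/D only, and every direction rests on that reading.

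HSF1 is the transcription factor that is released from chaperones when unfolded proteins pile up, forms trimers and binds heat shock elements, which are inverted repeats of the unit GAA spaced by a pair of bases. HSP70 proteins bind unfolded chains with the help of J proteins, which deliver clients and trigger ATP hydrolysis, and of HSP110 proteins, which exchange the bound nucleotide. HSP90 takes over partly folded kinases, receptors and HSF1 itself. In macrophages these chaperones are known to support the folding of signalling kinases and to be raised by heat and other proteotoxic stress.

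Total counts ran from 12818831 to 16525699 per library. FPKM are counts scaled by library size and by the length listed for each gene. Over 10 macrophage markers they summed to 13540 to 14141 in Gel/S and 11021 to 11190 in C/D. Most of that sum was Lyz2, at 9627 to 10754 FPKM in Gel/S and 7922 to 8085 in C/D. Csf1r, Cd68 and Cd14 stood at 370 to 1671 FPKM. Spi1, Itgam, Fcgr1, Ptprc and Adgre1 stood at 8.60 to 192 FPKM, and Mertk had 0 to 2 counts. Of the 10 markers, 9 were tested and 1, Csf1r, named after its value was seen, fell (log2 fold change −0.48, edgeR adjusted p = 0.00736). With DESeq2, 3 of the markers fell. The other 17 markers, of fibroblasts, osteoblasts, epithelium, lymphocytes and neutrophils, each stayed below the level needed for testing, and 5 of them (Col1a2, Col3a1, Dcn, Epcam and Krt18) had no count in any library. Mitochondrial transcripts took 5.59% to 9.02% of counts in Gel/S and 9.17% to 10.3% in C/D. Libraries of 1 group differed by more than counting noise in each of the 6 pairs, so none was treated as a repeat of another.

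In C/D, 4 of the 10 genes fell, namely Hsp90aa1, Dnajb1, Hspd1 and Hsph1, and Hspe1 rose. Hsf1 itself, Hspa4, Hspa8 and Hsp90ab1 did not pass the test, and Hspa1a lay under the filter of a mean of 1 FPKM. Of 11708 genes tested on their counts with edgeR, 27.0% passed an adjusted p of 0.05 (quasi-likelihood test, Benjamini-Hochberg adjustment over all of them), 13.9% falling and 13.1% rising, which is the background for these counts of 4 and 1 among 9 tested. The median log2 fold change was −0.19 over the 9 and 0.01 over all genes tested. Fold changes are C/D over Gel/S throughout.

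**Figure D1:**
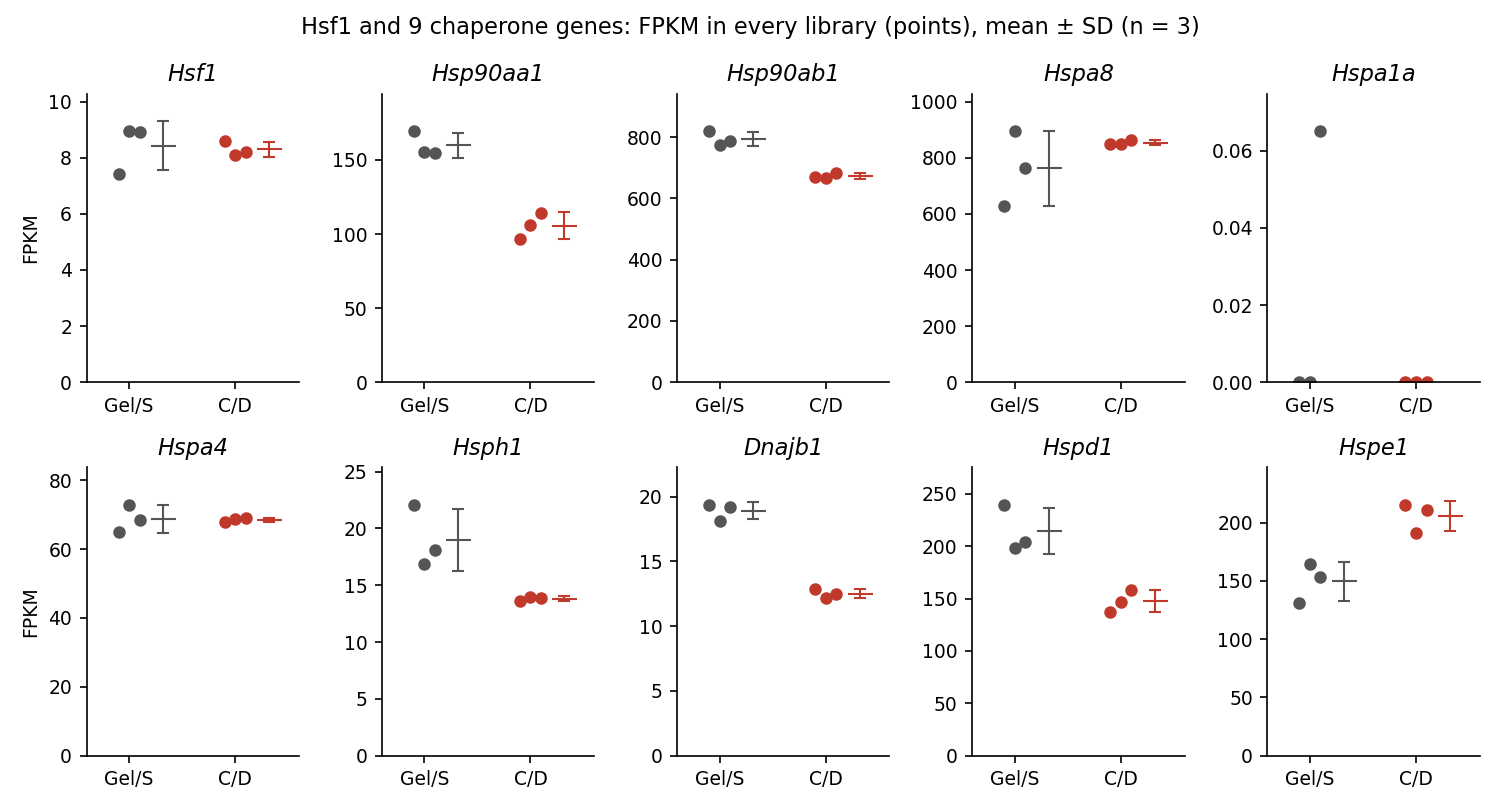
FPKM of Hsf1 and 9 chaperone genes in each of the 6 libraries (points; grey, Gel/S; red, C/D), with mean ± SD (n = 3) beside them and a linear axis of its own for each gene; Hspa1a has no mean drawn because it was at 0 in 5 libraries. Hsp90aa1, Hsp90ab1, Hsph1, Dnajb1 and Hspd1 are lower in every C/D library than in any Gel/S library, and Hspe1 is higher.

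Hsf1 (chromosome 15, 76477422 to 76501913, GRCm38) was measured at 7.42, 8.95 and 8.91 FPKM in Gel/S 1 to 3 and at 8.61, 8.09 and 8.19 FPKM in C/D 1 to 3. The C/D values lie inside the range of Gel/S. The means were 8.43 ± 0.871 and 8.30 ± 0.274 FPKM (SD, n = 3), and the log2 fold change was 0.02 with a 95% interval of −0.20 to 0.24 (edgeR adjusted p = 0.903). Its sign turned with limma on FPKM or TPM, without the filter, and with Gel/S 1 or C/D 1 left out, but not with other size factors or DESeq2. The mRNA level says nothing of whether HSF1 protein was bound to DNA, since the factor is known to be controlled mainly after translation. By FPKM, Hsf1 ranked at 5404 of the 11708 genes tested.

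HSP90 is made from a more inducible gene, Hsp90aa1, and a more constitutive one, Hsp90ab1. Hsp90aa1 (chromosome 12, 110690605 to 110702728) stood at 169, 155 and 155 FPKM in Gel/S and at 96.5, 106 and 114 FPKM in C/D. The highest C/D library lay well under the lowest Gel/S library. The mean went from 159.9 ± 8.29 to 106 ± 8.96 FPKM (SD, n = 3), and the log2 fold change was −0.55 with an SE of 0.0951 (edgeR adjusted p = 0.00209). A share of 45.4% of the 75-base stretches of Hsp90aa1 mRNA also occurs in other annotated transcripts, mostly of the pseudogenes Gm12346 and Gm5844, so its count depends on how the authors' counter treated reads with several matches. Gm12346 itself held 103, 72 and 88 counts in Gel/S and 50, 85 and 63 in C/D, against 4935 to 10645 for Hsp90aa1.

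Hsp90ab1 (chromosome 17, 45567775 to 45573271) was the 83rd most abundant mRNA per length of the genes tested. It stood at 819, 774 and 786 FPKM in Gel/S and at 668, 668 and 683 FPKM in C/D. Here too the groups do not overlap, yet the fitted log2 fold change of −0.19 (SE 0.0953, 95% interval −0.40 to 0.01) did not pass (edgeR adjusted p = 0.146). The authors' deposited table, with the authors' own test, lists an adjusted p of 0.0155 for it. Non-overlap of the FPKM values is common in these libraries, being found in 46.2% of the genes tested (27.1% with C/D lower and 19.1% with C/D higher) and in 6 of these 9 (5 lower and 1 higher).

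The HSP70 gene of unstressed cells, Hspa8 (HSC70; chromosome 9, 40800984 to 40810087), ranked at 66 of the genes tested by mean FPKM over the 6 libraries, the highest of the set, although Hsp90ab1 stood above it in Gel/S 1 and Gel/S 3. Its level was 628, 895 and 765 FPKM in Gel/S and 849.7, 849.8 and 865 FPKM in C/D. The 3 C/D libraries were nearly equal and lay between the highest and the middle Gel/S library. The log2 fold change of 0.20 (SE 0.134, 95% interval −0.09 to 0.50) did not pass (edgeR adjusted p = 0.270). Without Gel/S 2 the fold change was 0.34 and passed with an adjusted p of 0.0470, so that 1 library decides the call. A share of 62.4% of its 75-base stretches occurs in other annotated transcripts, among them Gm15459 and Gm26825, both at 0 counts in every library, and Gm8355, at 157 to 267 counts.

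Hspa8 and Hsp90ab1 together held 70.8% to 75.3% of the counts of the set in Gel/S and 76.6% to 77.6% in C/D. The whole set took 0.732% to 0.800% of all counts in Gel/S and 0.740% to 0.759% in C/D. These ranges overlap.

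Hspa1a (chromosome 17, 34969190 to 34972156), the classical heat-induced HSP70 gene, was at 0 counts in 5 libraries and at 3 counts in Gel/S 3. A count of 0 allows up to 3 counts, which correspond to 0.0627 to 0.0777 FPKM in these libraries, counting error only. Its near copy Hspa1b had 15, 34 and 24 counts in Gel/S and 32, 39 and 24 in C/D, or 0.335 to 0.878 FPKM. They share 52.7% of the 75-base stretches of Hspa1a, so the split of reads between them is uncertain. As counted, the sum of both stayed under 1 FPKM in every library. In all, 61.7% of the stretches of Hspa1a occur in other annotated transcripts. If the authors' counter left out reads with several matches, that sum is too low. Both genes lay under the filter of the main test. The fit without a filter tested both and called neither.

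The HSP110 proteins, nucleotide exchange factors of HSP70, split. Hsph1 (chromosome 5, 149614287 to 149636376) was measured at 22.1, 16.8 and 18.1 FPKM in Gel/S and at 13.6, 13.98 and 13.9 FPKM in C/D. Gel/S 1 was the highest, and even the lowest Gel/S library stood above each C/D library. The log2 fold change was −0.42 (SE 0.0986, edgeR adjusted p = 0.0102). It lay between −0.53 and −0.30 over the 13 other fits made, with an adjusted p of at most 0.0444.

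Hspa4 (chromosome 11, 53259814 to 53300457) did not follow it. Its values were 65.0, 72.9 and 68.5 FPKM in Gel/S and 67.8, 68.9 and 69.0 FPKM in C/D, all C/D libraries inside the Gel/S range. The log2 fold change was 0.04 with a 95% interval of −0.16 to 0.23 (edgeR adjusted p = 0.788).

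Dnajb1 (chromosome 8, 83608193 to 83612653), the main stress-induced J protein of the cytosol, stood at 19.4, 18.1 and 19.2 FPKM in Gel/S and at 12.9, 12.2 and 12.5 FPKM in C/D. The values within each group are tight and far apart between groups. The mean went from 18.9 ± 0.669 to 12.5 ± 0.338 FPKM (SD, n = 3), and the log2 fold change was −0.55 with an SE of 0.0836 (edgeR adjusted p = 0.00112). No 75-base stretch of Dnajb1, Hsph1, Hspa4 or Hsf1 mRNA occurs in the transcripts of another annotated gene.

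**Figure D2:**
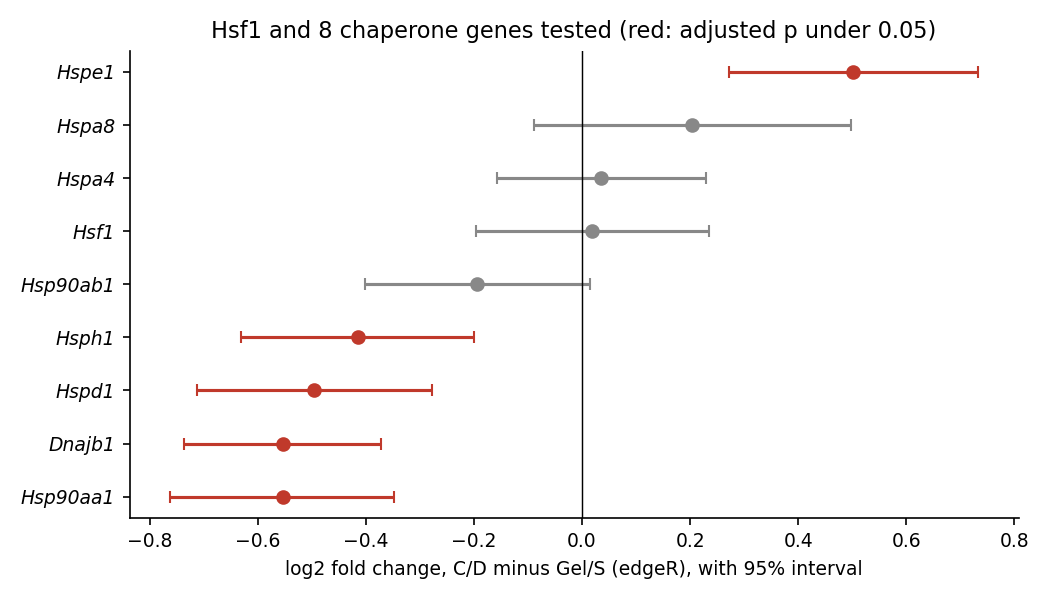
Log2 fold change (C/D minus Gel/S, edgeR) of Hsf1 and 8 chaperone genes with its 95% interval (horizontal bars); red marks an adjusted p under 0.05. Hsp90aa1, Dnajb1, Hspd1 and Hsph1 lie left of 0 with their whole interval, Hspe1 lies right of it, and the intervals of Hsf1, Hspa4, Hspa8 and Hsp90ab1 include 0.

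The chaperonin pair of the mitochondrial matrix moved apart. Hspd1 encodes HSP60, whose rings enclose unfolded proteins, and Hspe1 encodes HSP10, the lid that closes them. The genes lie head to head on chromosome 1, Hspd1 on the minus strand (55077835 to 55088243) and Hspe1 on the plus strand (55088132 to 55091307), and their annotated spans overlap by 112 bases. RefSeq places 1 start of Hspd1 at 55087932 and the start of Hspe1 at 55088148, with 215 bases between these facing starts. Within that stretch lies an uninterrupted run of 4 heat shock units, shown here because it is shared by both genes (chr1:55088053-55088082, GRCm38.p6, plus strand, RefSeq, 5′ to 3′, with the run in capitals):
Hspd1-Hspe1 site: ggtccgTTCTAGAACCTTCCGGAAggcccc

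The run begins 127 bases from the Hspd1 start and ends 72 bases before the Hspe1 start. GENCODE M21 and RefSeq also hold a longer Hspd1 transcript that starts at 55088243, and its first exon spans the run.

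Hspd1 stood at 239.6, 199 and 204 FPKM in Gel/S and at 137, 147 and 158 FPKM in C/D. The groups do not overlap. The mean went from 214 ± 22.2 to 147 ± 10.4 FPKM (SD, n = 3), and the log2 fold change was −0.50 with an SE of 0.0998 (edgeR adjusted p = 0.00467).

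Hspe1 went the other way, from 131, 164 and 153 FPKM in Gel/S to 215, 191 and 211 FPKM in C/D. Each C/D library stood above each Gel/S library, and Gel/S 1 was the lowest of Hspe1 and the highest of Hspd1. The mean went from 149.6 ± 16.8 to 206 ± 12.7 FPKM (SD, n = 3), and the log2 fold change was 0.50 with an SE of 0.106 (edgeR adjusted p = 0.00575). The call of each gene held in each of those 13 fits, with log2 fold changes of −0.63 to −0.42 for Hspd1 and of 0.37 to 0.58 for Hspe1.

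Within a library, the ratio of Hspe1 to Hspd1 FPKM was 0.548, 0.827 and 0.748 in Gel/S and 1.57, 1.30 and 1.33 in C/D. The ratio was higher in each C/D library than in any Gel/S library, which follows from the values of Hspe1 and Hspd1 given above. Which gene of the pair stood higher depends on the listed lengths, since by counts Hspd1 exceeded Hspe1 in all 6 libraries (4716 to 10117 counts against 3094 to 4674). The log2 ratio was 1.00 higher in C/D, or 2-fold (exact permutation test, 2-sided p = 0.1, adjusted p = 0.1 over the 3 ratios compared), and 3 libraries a group cannot give a smaller p. A ratio within a library does not depend on how libraries are scaled to each other.

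The listed lengths and the sequence copies of this pair differ as follows. Hspe1, with a listed length of 1474 bases, belongs to the shortest of 5 equal length classes of the genes tested, whose median log2 fold change was 0.25 and of which 16.6% rose and 4.52% fell. Hspd1, at 2642 bases, belongs to the next class, with a median of 0.02, where 13.5% rose and 12.5% fell. Of the 75-base stretches, 31.0% in Hspd1 and 29.1% in Hspe1 occur in other transcripts. For Hspd1 these are mainly of Hspd1-ps3 (182, 108 and 133 counts in Gel/S and 49, 114 and 93 in C/D). For Hspe1 they are mainly of AC117239.2, which has no counts listed under that name. The part of length, copies and the antisense overlap in the result was not tested.

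The other ratios compared did not overlap between the groups either. Their genes were chosen with earlier results of these data known. Hsp90aa1 and Hsph1 were already lower in each C/D library, so these ratios are not separate evidence. Hsp90aa1 over Hsp90ab1 was 0.207, 0.201 and 0.197 in Gel/S and 0.145, 0.159 and 0.168 in C/D, lower by a factor of 0.778 (2-sided exact permutation p = 0.1, adjusted p = 0.1). The inducible gene thus made up a smaller part of HSP90 mRNA in each C/D library.

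Hsph1 over Hspa4 was 0.340, 0.231 and 0.264 in Gel/S and 0.201, 0.203 and 0.201 in C/D, a factor of 0.734 (2-sided exact permutation p = 0.1, adjusted p = 0.1). The Gel/S libraries spread widely for it and the C/D libraries hardly at all, and the log2 difference of −0.45 became −0.29 without Gel/S 1.

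**Figure D3:**
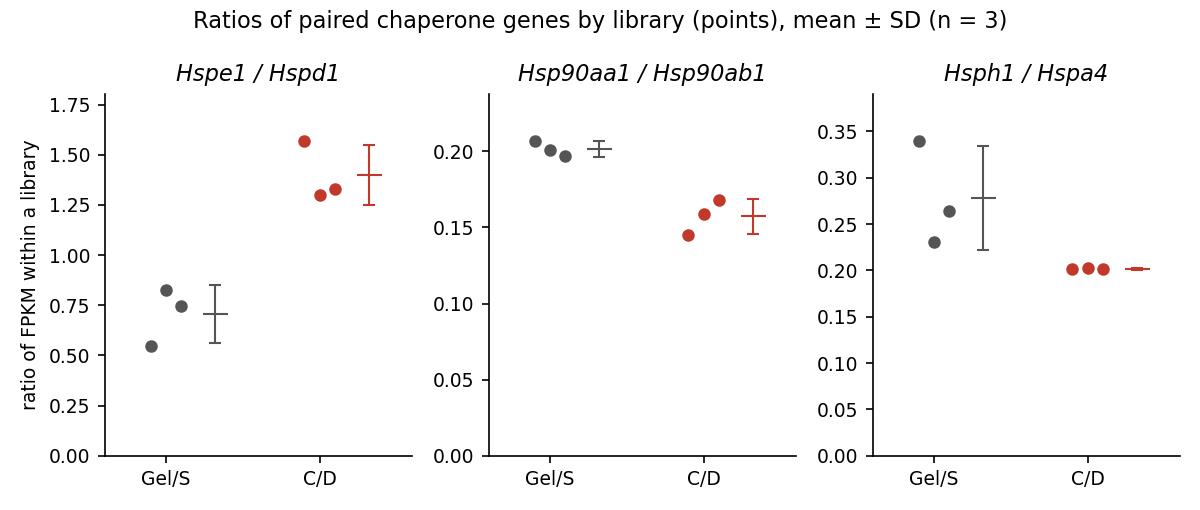
Ratio of FPKM within each library for Hspe1 over Hspd1, Hsp90aa1 over Hsp90ab1 and Hsph1 over Hspa4 (points; grey, Gel/S; red, C/D; linear axes from 0), with mean ± SD (n = 3). The Hspe1 to Hspd1 ratio is 0.548 to 0.827 in Gel/S and 1.30 to 1.57 in C/D, and the other ratios are lower in every C/D library than in any Gel/S library.

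The 4 genes that fell and Hspe1 were also called in that direction in the authors' deposited table, which called Hsp90ab1 in addition, making 5 lower and 1 higher in C/D of the 10. Of all genes with an adjusted p there, 14.9% were called, 8.94% as lower and 5.95% as higher. Its log2 fold changes, turned to C/D over Gel/S, were −0.60 for Hsp90aa1, −0.60 for Dnajb1, −0.54 for Hspd1, −0.46 for Hsph1 and 0.46 for Hspe1.

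**Figure D4:**
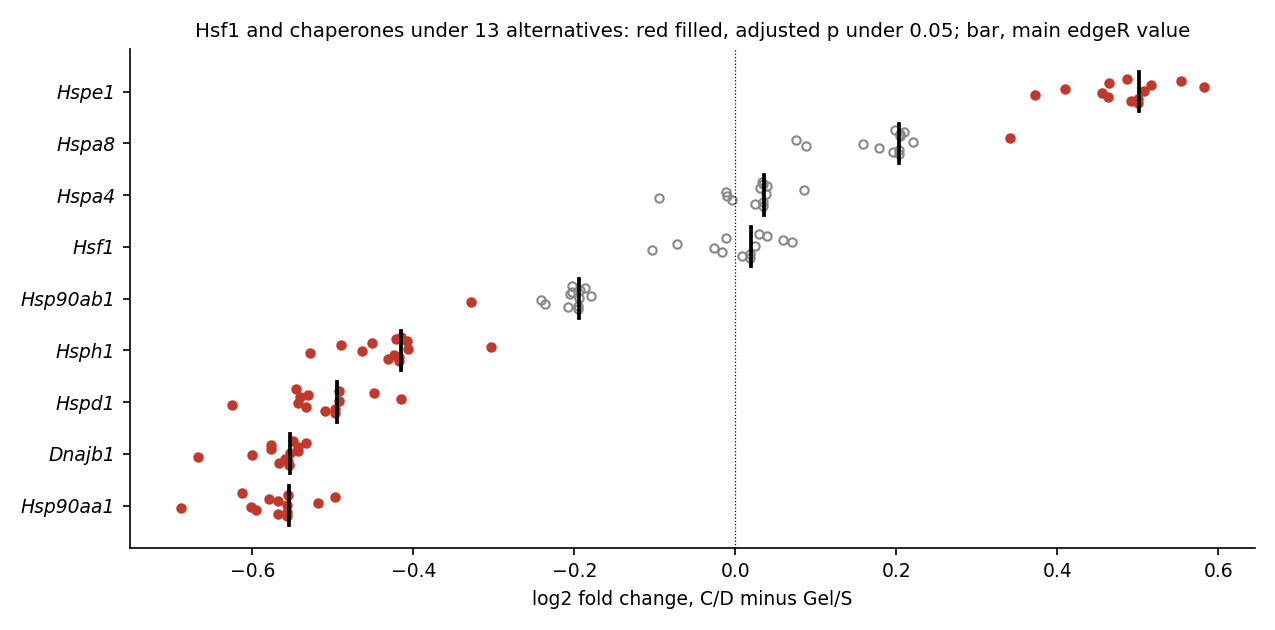
Log2 fold change (C/D minus Gel/S) of Hsf1 and 8 chaperone genes under 13 alternative fits (points; red filled, adjusted p under 0.05; open, not) and in the edgeR fit of the report (black bar). The points of Hsp90aa1, Dnajb1, Hspd1, Hsph1 and Hspe1 are all filled and on 1 side of 0, 1 point each of Hspa8 and Hsp90ab1 is filled, and those of Hsf1 and Hspa4 lie on both sides of 0.

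RefSeq promoter windows, from 250 bases before to 50 after an annotated start (GRCm38.p6), were found for 6 of the 10 genes, in 9 windows. Hsf1, Hsp90aa1, Hsp90ab1 and Hspa8 had no entry. A run of 3 units, GAANNTTCNNGAA on either strand, occurs in 0.603% of all 32851 windows and in windows of Hspd1 (that of the start facing Hspe1), Hspe1 and Hsph1. A pair of units, GAANNTTC or TTCNNGAA, which each run of 3 contains, occurs in 15.1% of all windows and in addition in that of Hspa1a. The run in Hsph1 begins 36 bases after its first annotated start and is shown beside the upstream stretches of genes without one, to set Hsph1 and Dnajb1, which fell, against Hspa4, which did not pass, and Hspa1a, which was near 0. Capitals mark paired heat shock units (GAANNTTC or TTCNNGAA) and the CCAAT box in either orientation, a motif of 37.4% of all windows. Hsph1 also has a further pair of units and 2 CCAAT boxes upstream of its first annotated start, outside the stretch printed. In Dnajb1 a CCAAT box after its first annotated start is not printed either. The printed stretches are thus only parts of the windows and differ in position and length. All are read 5′ to 3′ on the strand of the gene, at chr5:149636287-149636316 (minus), chr8:83607972-83608174 (plus), chr11:53300480-53300729 (minus) and chr17:34972157-34972406 (minus) in that order:
Hsph1 site: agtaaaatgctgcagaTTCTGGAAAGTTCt
Dnajb1 upstream: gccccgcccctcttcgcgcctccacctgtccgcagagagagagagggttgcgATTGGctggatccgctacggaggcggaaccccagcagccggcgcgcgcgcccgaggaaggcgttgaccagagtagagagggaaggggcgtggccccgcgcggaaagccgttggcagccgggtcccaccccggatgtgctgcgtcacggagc
Hspa4 upstream: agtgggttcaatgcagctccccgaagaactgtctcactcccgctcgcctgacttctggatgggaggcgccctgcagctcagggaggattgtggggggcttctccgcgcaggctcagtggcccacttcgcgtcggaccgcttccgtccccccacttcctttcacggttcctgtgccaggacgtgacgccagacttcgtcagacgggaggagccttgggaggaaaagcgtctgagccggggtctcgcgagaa
Hspa1a upstream: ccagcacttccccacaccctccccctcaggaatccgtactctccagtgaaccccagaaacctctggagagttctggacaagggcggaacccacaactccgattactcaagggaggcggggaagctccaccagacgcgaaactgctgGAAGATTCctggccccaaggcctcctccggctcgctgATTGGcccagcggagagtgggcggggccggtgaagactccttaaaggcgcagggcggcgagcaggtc

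Of the 3 genes with the run of 3 units, Hspd1 and Hsph1 fell and Hspe1 rose. Dnajb1 fell without a pair or run of heat shock units in either of its windows. A match is a run of letters and not a measured binding site, and the absence of a match says only that these letters do not occur in the window.

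Other genes of the pathway were taken from 11 lists. Of the other heat shock factors and their regulators, 3 of 7 were expressed well enough to be tested. Hsbp1, whose product binds HSF1 trimers, rose from 62.3 ± 8.20 to 84.7 ± 3.54 FPKM (SD, n = 3; log2 fold change 0.48, edgeR adjusted p = 0.00732). Hsf2, the other widely expressed factor, had a log2 fold change of 0.23 (edgeR adjusted p = 0.138).

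Of 20 heat-inducible HSF1 targets outside the set, 15 were tested with edgeR, 3 rose, 0 fell and 12 did not pass (0 fell at an unadjusted p under 0.05, and 0 with DESeq2), with a median log2 fold change of −0.05. Over all genes tested, 13.1% rose and 13.9% fell. Among the risers were Dedd2 (0.41) and Hspa4l (0.35), the third HSP110 gene. Dedd2 lost its call with Gel/S 3 or C/D 2 left out, and Hspa4l when C/D 1, Gel/S 2, C/D 3 or Gel/S 3 was left out (highest edgeR adjusted p = 0.134). The number risen was 0 without Gel/S 3 and 1 without C/D 3, fits in which 7.58% and 8.15% of all genes rose. With limma on TPM (FPKM rescaled to the same sum in each library) 0 rose and 1 fell. Of all genes, 5.41% rose and 12.9% fell in that fit. The small heat shock genes that respond most to heat were near 0 in both groups, with 0 to 5 counts for Hspb8 and 0 to 6 for Cryab. Hspb1 had 3, 2 and 7 counts in Gel/S and 14, 17 and 5 in C/D, and these overlap. Of 10 small heat shock genes, Hspb6 (log2 fold change 0.49, edgeR adjusted p = 0.110) and Hspb11 (0.15, adjusted p = 0.312) were tested and 0 passed, also by DESeq2, with Hspb6 the 1 gene at an unadjusted p under 0.05. Without the filter, 8 were tested and 1, Hspb1, was called as risen (log2 fold change 1.66, edgeR adjusted p = 0.0463). In that fit 7.29% of all genes rose.

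Partners of HSP90 and HSP70 are read against all genes tested, of which 8545 of 11708 did not pass. Of 24 HSP90 co-chaperones, 2 fell, 1 rose and 21 did not pass (median −0.06). Fkbp5, a glucocorticoid-induced immunophilin, fell by 0.54 on the log2 scale and Rpap3, a subunit of an HSP90-linked assembly complex, by 0.42, while Cdc37l1, a relative of the kinase co-chaperone Cdc37, rose (0.41). Of 8 nucleotide exchange and HIP factors of HSP70, Bag2 fell from 6.78 ± 0.477 to 3.68 ± 0.0600 FPKM (SD, n = 3; log2 fold change −0.84, edgeR adjusted p = 0.000631) and 7 did not pass. Of 17 cytosolic and nuclear J proteins, 16 were tested: Dnajb5 (−0.81) and Dnajc21 (−0.58) fell, Dnajc17 rose (0.77) and 13 did not pass. Dnajc17, at 1308 listed bases, belongs to the shortest length class, whose median was 0.25, and the part of length was not tested. Calls were lost for Rpap3 without Gel/S 1 or any C/D library, for Cdc37l1 without Gel/S 3 or C/D 2, for Dnajb5 without C/D 1 or C/D 2, for Dnajc21 without Gel/S 3 and for Dnajc17 without C/D 3 (highest edgeR adjusted p = 0.0845).

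The lists also held the cytosolic chaperonin TRiC and its partner prefoldin, which feeds it actin and tubulin chains. Both had a share of calls near the 27.0% of all genes tested (13.9% fallen, 13.1% risen). Of 8 TRiC subunits, Tcp1 (−0.40) and Cct6a (−0.26) fell and 6 did not pass (median −0.06). Of 6 prefoldin subunits, Pfdn2 (0.61, 38.4 ± 4.16 to 56.8 ± 1.55 FPKM, SD, n = 3) and Pfdn1 (0.38) rose and 4 did not pass (median 0.34), whereas DESeq2 called 3 as risen. The fit without a filter gave 4 risen and 1 fallen, and leaving out Gel/S 2 gave 4 risen. The median was 0.18 without Gel/S 1. Pfdn1, Pfdn5 and Pfdn6 belong to the shortest length class, whose median was 0.25, and the part of length in these values was not tested. Cct6a lost its call when any library other than Gel/S 1 was left out, and Pfdn1 without Gel/S 3 or any C/D library (highest edgeR adjusted p = 0.147).

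Among the other HSP70 genes, 5 of 10 were tested. The background over all genes tested was 13.9% fallen and 13.1% risen. The ER member Hspa5 (BiP) fell from 367 ± 21.6 to 255 ± 15.9 FPKM (SD, n = 3; log2 fold change −0.48, edgeR adjusted p = 0.00484), the mitochondrial member Hspa9 fell by 0.52 and Hspa13 by 0.52 on the log2 scale, Hspa4l rose, and 1 did not pass. Of 17 mitochondrial chaperones and proteases, Hspa9, Lonp1 (−0.32) and Dnaja3 (−0.27, chosen after its value was seen) fell, the iron-sulfur cluster J protein Hscb (0.56) and the exchange factor Grpel2 (0.38) rose, and 12 did not pass. These 5 calls of 17 lie close to the 27.0% called over all genes tested. Hscb, at 905 listed bases, belongs to the shortest length class, of which 16.6% rose and 4.52% fell. The part of length in its rise was not tested. With Gel/S 3 or C/D 2 left out, edgeR called 0 of this list as fallen. Lonp1 and Grpel2 were not called when Gel/S 3 was left out, nor when C/D 2 or C/D 3 was. The same held for Hspa9 with C/D 1, C/D 2 and Gel/S 3, for Hspa13 with C/D 1, C/D 2 and Gel/S 1, and for Dnaja3 with each C/D library and Gel/S 3 (highest edgeR adjusted p = 0.134).

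ER chaperones, which fold secreted and membrane proteins, were lower in C/D across most of their list. Of 14 tested with edgeR, 10 fell, 0 rose and 4 did not pass (0 rose at an unadjusted p under 0.05, and 0 with DESeq2), with a median log2 fold change of −0.46 against 0.01 for all genes tested and −0.19 for Hsf1 and the 8 chaperones. Over all genes tested, 13.9% fell and 13.1% rose. Sdf2l1 (−0.72), Creld2 (−0.49), Hsp90b1 (−0.60), the ER paralog of HSP90, and Dnajb11 (−0.44) had the smallest p-values of the ER list. The ER list fell in 8 to 12 genes when any 1 library was left out.

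**Figure D5:**
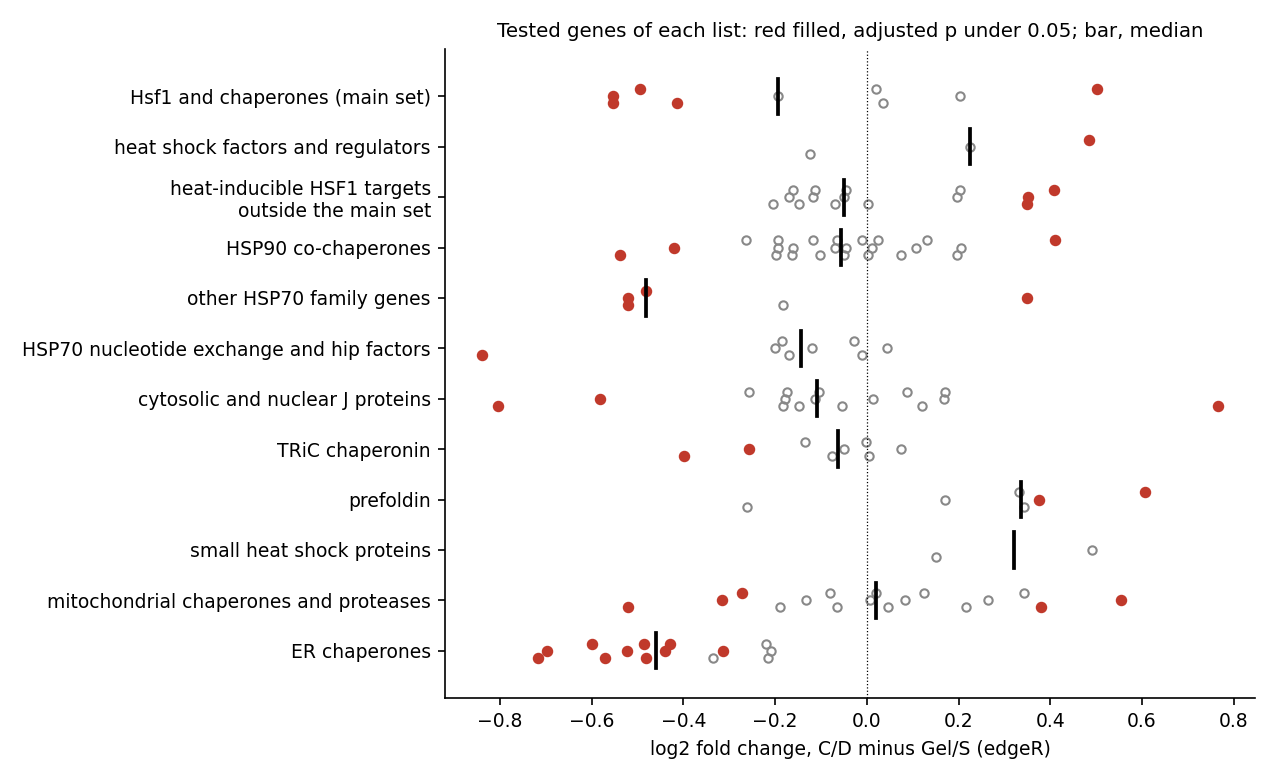
Log2 fold change (C/D minus Gel/S, edgeR) of each tested gene in the main set and in 11 lists of related genes; red filled points have an adjusted p under 0.05, open points do not, and the black bar is the median of the list. The ER chaperones lie left of 0, the prefoldin genes mostly right of it, and the main set has calls on both sides.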

How the data were processed

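RNA of 6 RAW264.7 libraries was analysed, 3 per group, from 1 deposited table. Counts per gene were deposited, per the file headers, which do not say whether they were normalized. FPKM values were deposited by the authors beside the counts, per the file headers. The authors also deposited log2 fold changes with p-values and adjusted p-values, whose test is not named, and the sign of the fold changes was turned here. The submitters' processing notes name the build GRCm38. The sources used here do not give the aligner, the counter or whether strand was used, so reads of overlapping, antisense or near-identical genes cannot be told apart.

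Counts of 100 symbols with several entries were summed. Genes with a mean FPKM of at least 1 were tested with the edgeR 4.0.16 quasi-likelihood test (TMM factors, R 4.3.3), Benjamini-Hochberg adjustment over 11708 genes and a threshold of 0.05. Standard errors were taken from the log2 fold change and its F value. Alternatives used limma 3.58.1 and DESeq2 1.42.0. The pipeline was tested on simulated data. Ratios were compared by exact permutation.

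Genes and lists were chosen with earlier results of these data known. Named were the 10 genes, up to 4 per list with the smallest adjusted p (2 with the smallest p where none passed), Hsf2, Hspa1b, Hspa9 and Hspa5; 1 gene that the rule names is not reported here. The planned ratio of Hspa1a to Hspa8 could not be computed because Hspa1a was at 0 in 5 of 6 libraries. The labels give no batch.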

Additional observations from a re-analysis of the deposited data

How the results depend on the processing

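The calls of Hsp90aa1, Hsph1, Dnajb1, Hspd1 and Hspe1 held in 13 of 13 alternatives (other size factors, library totals, DESeq2, limma on FPKM or TPM, no filter, a replicate block and each library left out), as the plot of these fits shows. With 1 library left out in turn, the genes risen among the 10 numbered 1 to 2 and those fallen 4 to 4, while 15.4% to 34.8% of all genes were called. Over all genes, the risen numbered 1020 when limma was run on log2(FPKM + 1), 633 when it was run on log2(TPM + 1), and 887 to 1989 with 1 library left out, and the fallen 876 to 2089 with 1 library left out. The median of all genes was −0.12 on TPM, and of the 13 alternatives that one alone called Hsp90ab1 (−0.33, adjusted p = 0.0454). Hsf1 turned to −0.016 with limma on FPKM, −0.103 on TPM and −0.027 without a filter, and ranged from −0.072 (without Gel/S 1) to 0.070 with 1 library left out. Hspa4 turned to −0.004 with limma on FPKM, −0.095 on TPM and −0.010 without a filter, and ranged from −0.011 (without Gel/S 1) to 0.086. None of these was called, and the cause was not tested. The replicate block gave 1242 risen and 1302 fallen genes and the same 5 calls. Of the genes named outside the 10, Hspa4l, Cdc37l1, Hspa9, Hspa13, Dnajb5 and Pfdn1 lost their calls with limma on FPKM and on TPM. Dedd2 and Grpel2 lost theirs with limma on TPM only of these. The replicate block lost the calls of Hspa13, Cct6a and Dnaja3, library totals that of Hspa4l, and the fit without a filter that of Grpel2. Same-numbered libraries did not deviate together (correlations of −0.09, −0.06 and 0.03), so the numbers were not taken as pairs. Low counts limit Hspa1a, Hspa1b and the small heat shock genes.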
